A study of Homo sapiens with 38 samples.

Results

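The genes described here encode the enzymes that add methyl groups to lysine 4 of histone H3 (H3K4) through the SETD1 complexes and the KDM5 enzymes that remove them, in RKO cells treated with an inhibitor of LSD1, another eraser of this mark. They were chosen by symbol and are KDM5A, KDM5B, KDM5C, SETD1A, SETD1B, WDR5, ASH2L, RBBP5, DPY30 and CXXC1. All 10 of 10 were found among the 25594 entries of the expression table, all 10 were among the 10865 expressed genes (mean of at least 1 FPKM), and all 10 held at least 1 FPKM in every library. FPKM, fragments per kilobase of transcript scaled to the number of mapped fragments, is a level corrected for transcript length and library size.

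RKO is a human colorectal cancer cell line. The 8 RNA libraries hold 1 library for each of 4 treatments on day 30 and on day 4, all in 0.1% DMSO: DMSO alone, NCD38 (a small-molecule LSD1 inhibitor), and 2 conjugates that join NCD38 to a pyrrole-imidazole polyamide, a ligand of the DNA minor groove, named NCD38-β2P4 and NCD38-β2PIPP. The labels give each compound at 2 μM, with medium renewed every 5 days, and spell the second polyamide both PIPP and PPIP. The study's methods write the day 4 dose in mM. The labels of these RNA libraries name no other treatment and no genetic change. The polyamides without NCD38 were used on day 30 for chromatin immunoprecipitation (ChIP) libraries only.

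Methylation of H3K4 marks active regulatory DNA: monomethylation is typical of enhancers, and trimethylation of promoters. SETD1A and SETD1B are the catalytic subunits of the SETD1 (COMPASS) complexes, which act with a core of WDR5, RBBP5, ASH2L and DPY30 that is shared with the MLL complexes, and CXXC1 binds unmethylated CpG dinucleotides and brings SETD1 to CpG-rich promoters. LSD1 (KDM1A) is a flavin-dependent demethylase that removes mono- and dimethyl groups, whereas the KDM5 enzymes are Jumonji-type dioxygenases that remove tri- and dimethyl groups.

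Since the polyamides read short DNA sequences and CXXC1 reads CpG, 3 promoters are shown, from a writer subunit, an eraser and the CpG reader. Each window runs from 250 bases before to 50 bases after a RefSeq start site on GRCh38.p14, all 3 on the minus strand and written 5′ to 3′, and capitals mark CG dinucleotides. Windows were found for 7 of the 10 genes (10 windows of 300 bases, several of them for WDR5).
KDM5B, chr1:202808372-202808671: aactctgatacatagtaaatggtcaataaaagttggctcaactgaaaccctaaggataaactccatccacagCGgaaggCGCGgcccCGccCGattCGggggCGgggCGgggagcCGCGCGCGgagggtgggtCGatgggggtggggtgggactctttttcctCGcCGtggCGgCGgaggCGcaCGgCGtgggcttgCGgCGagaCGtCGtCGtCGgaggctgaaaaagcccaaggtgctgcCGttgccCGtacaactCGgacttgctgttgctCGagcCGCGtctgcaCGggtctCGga
RBBP5, chr1:205121929-205122228: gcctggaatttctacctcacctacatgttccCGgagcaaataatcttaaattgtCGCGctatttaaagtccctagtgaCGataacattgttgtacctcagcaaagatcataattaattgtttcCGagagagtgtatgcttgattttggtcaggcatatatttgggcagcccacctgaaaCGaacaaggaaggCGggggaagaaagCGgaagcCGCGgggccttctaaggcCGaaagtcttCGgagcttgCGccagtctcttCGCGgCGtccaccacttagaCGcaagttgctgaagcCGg
CXXC1, chr18:50287643-50287942: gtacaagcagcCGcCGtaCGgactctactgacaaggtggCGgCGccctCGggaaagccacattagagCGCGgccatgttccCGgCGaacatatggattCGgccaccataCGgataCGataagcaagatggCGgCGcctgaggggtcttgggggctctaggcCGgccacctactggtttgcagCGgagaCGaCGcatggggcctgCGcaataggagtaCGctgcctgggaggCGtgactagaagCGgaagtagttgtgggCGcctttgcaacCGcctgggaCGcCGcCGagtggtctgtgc
The KDM5B window held 34 CG dinucleotides, the CXXC1 window 28 and the RBBP5 window 18, against a median of 14 over 35116 RefSeq promoters of the same length, of which 96.0% held at least 1. A run of 6 bases made only of A or T, searched on both strands with overlapping matches counted, occurred 15 times in the RBBP5 window, 2 times in that of KDM5B and 0 times in that of CXXC1, and 61.2% of all promoters held at least 1. A CG with 2 bases of A or T on each side occurred 1 time in each of the RBBP5 and CXXC1 windows and 0 times in that of KDM5B, against 15.9% of all promoters with at least 1. Every such match is also a CG match. These are counts of letters in a window and not binding sites.

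The libraries were estimated to hold 13300000 to 24300000 fragments each. Among the markers examined, KRT18 lay between 76.2 and 121 FPKM and KRT8 between 6.58 and 19.0 in all 8 libraries, and the intestinal factor CDX2 between 7.48 and 11.6, while the epithelial genes CDH1 (at most 0.064) and VIL1 (listed at 0) were at or near 0. The adhesion molecule EPCAM was the marker that moved with day, at 3.94 to 6.53 FPKM on day 30 and 0.092 to 0.87 on day 4 (log2 difference 2.11, SE 0.16, limma adjusted p = 0.000546), and its part in the results below was not tested. PTPRC (leukocytes) and PECAM1 (endothelium) were listed at 0 in every library, and COL1A1 (fibroblasts) did not exceed 0.013 FPKM. In bulk libraries, fewer cells that express a gene and less RNA per cell cannot be told apart.

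Levels differed widely between the genes, also within the shared core. On day 30 the order of median level was DPY30, WDR5, CXXC1, KDM5C, ASH2L, SETD1A, KDM5B, KDM5A, RBBP5 and SETD1B, from 59.5 down to 2.17 FPKM. The neighbours CXXC1 and KDM5C, ASH2L and SETD1A, SETD1A and KDM5B, KDM5A and RBBP5, and RBBP5 and SETD1B had overlapping ranges over the 4 treatments of that day. On day 4 WDR5 came first, at a median of 58.2 FPKM, followed by KDM5C, CXXC1 and DPY30, and KDM5A came last at 3.02 FPKM. There the ranges separated WDR5 from KDM5C, CXXC1 from DPY30 and SETD1A from KDM5B, and every other pair of neighbours overlapped.

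**Figure D1:**
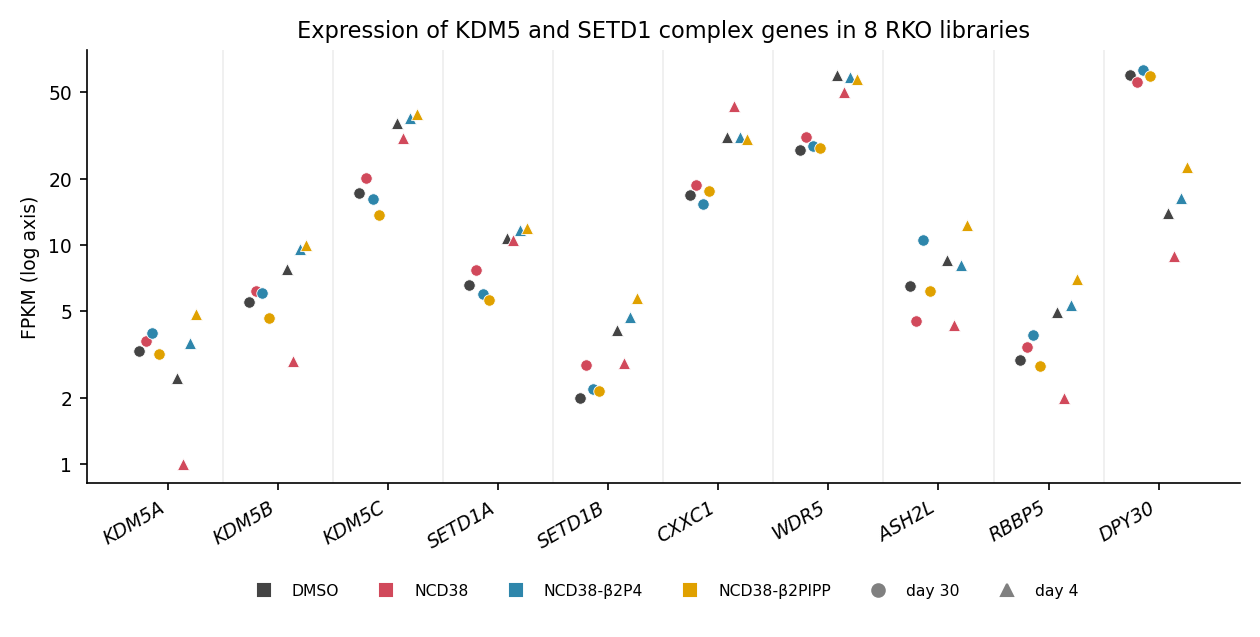
FPKM (log axis) of the 10 genes in each of the 8 libraries, 1 point a library, with colour for the treatment, circles for day 30 and triangles for day 4. DPY30 lies at 55.7 to 63.1 on day 30 and at 8.91 to 22.8 on day 4, WDR5, KDM5C, CXXC1, SETD1A and SETD1B lie lower on day 30, and the NCD38 library of day 4 gives the lowest point for KDM5A, KDM5B, ASH2L, RBBP5 and DPY30.

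Of the KDM5 erasers, KDM5C was the most abundant. Its level on day 30 was 17.3 FPKM in DMSO, 20.3 under NCD38, 16.2 under the P4 conjugate and 13.8 under the PIPP conjugate, and on day 4 it was 36.3, 30.8, 38.3 and 39.7 FPKM. Values are given below in this order of treatments, and gene positions on GRCh37. Every day 4 library lay above every day 30 library. KDM5C, an X-linked gene (GRCh37 chromosome X, 53205465 to 53254604, minus strand, 26 exons), accounted for 61.7 to 67.4% of the summed KDM5A, KDM5B and KDM5C level on day 30 and for 72.7 to 88.6% on day 4.

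KDM5B (chromosome 1, 202693623 to 202777615, minus strand) stood at 5.47, 6.16, 6.07 and 4.63 FPKM on day 30 and at 7.82, 2.95, 9.63 and 10.1 FPKM on day 4. The day 4 library with NCD38 was the lowest of the 8 and the other day 4 libraries were the highest 3, so the days overlapped through that library alone. KDM5A (chromosome 12, 389223 to 498486, minus strand) was the least abundant eraser, at 3.27, 3.64, 3.96 and 3.20 FPKM on day 30 and 2.46, 1.01, 3.57 and 4.86 FPKM on day 4. The day 4 libraries surrounded those of day 30, with the lowest value again in NCD38. KDM5A shares 48 bases of exon (0.4% of its exons) with CCDC77 on the opposite strand.

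The SETD1 methyltransferases were both higher on day 4. SETD1A (chromosome 16, 30968615 to 30995985, plus strand) measured 6.57, 7.69, 5.99 and 5.61 FPKM on day 30 and 10.7, 10.5, 11.8 and 12.0 FPKM on day 4, and SETD1B (chromosome 12, 122241915 to 122270562, plus strand) measured 2.00, 2.83, 2.19 and 2.15 FPKM on day 30 and 4.11, 2.88, 4.69 and 5.75 FPKM on day 4. For neither did the days overlap, although the SETD1B values with NCD38 of the 2 days, 2.83 and 2.88 FPKM, lay next to each other. SETD1A exceeded SETD1B 2.08 to 3.66-fold within every library. The ratio of summed KDM5 to summed SETD1 level stayed between 2.59, in the NCD38 library of day 4, and 3.20, in the NCD38-β2P4 library of day 30.

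CXXC1 (chromosome 18, 47808713 to 47814209, minus strand) stood at 16.9, 18.9, 15.5 and 17.7 FPKM on day 30 and at 31.2, 43.2, 31.0 and 30.7 FPKM on day 4. The days did not overlap. The highest value of the 8 was that of NCD38 on day 4, the library in which each of the other 9 genes had its lowest value of that day.

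The shared core did not move as one. WDR5 (chromosome 9, 137000487 to 137025090, plus strand), the scaffold that joins the catalytic subunit to the core, measured 27.1, 31.3, 28.3 and 27.9 FPKM on day 30 and 59.8, 50.2, 58.7 and 57.6 FPKM on day 4, with no overlap of days. DPY30 (chromosome 2, 32092878 to 32264874, minus strand), the small subunit that docks on ASH2L, measured 59.6, 55.7, 63.1 and 59.5 FPKM on day 30 and 14.05, 8.91, 16.4 and 22.8 FPKM on day 4, and was the one gene of the 10 whose day 30 libraries all lay above those of day 4. DPY30 over WDR5 within a library was 1.78 to 2.23 on day 30 and 0.178 to 0.396 on day 4. These 2 transcripts differ in GC content (42.0 and 55.6%). With the GC trend subtracted (below), their day differences were smaller, at 0.98 and -0.32.

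RBBP5 (chromosome 1, 205055270 to 205091143, minus strand), which links the core to the catalytic subunit, stood at 2.99, 3.42, 3.87 and 2.81 FPKM on day 30 and at 4.97, 2.00, 5.35 and 6.98 FPKM on day 4. Like KDM5B, it was lowest in the NCD38 library of day 4 and highest in the other 3 of that day. ASH2L, which activates the methyltransferase together with RBBP5, stood at 6.51, 4.49, 10.5 and 6.20 FPKM on day 30 and at 8.59, 4.30, 8.08 and 12.4 FPKM on day 4. It overlapped between days, and its NCD38 library was the lowest on both. DPY30 over RBBP5 was 16.3 to 21.2 on day 30 and 2.82 to 4.46 on day 4.

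**Figure D2:**
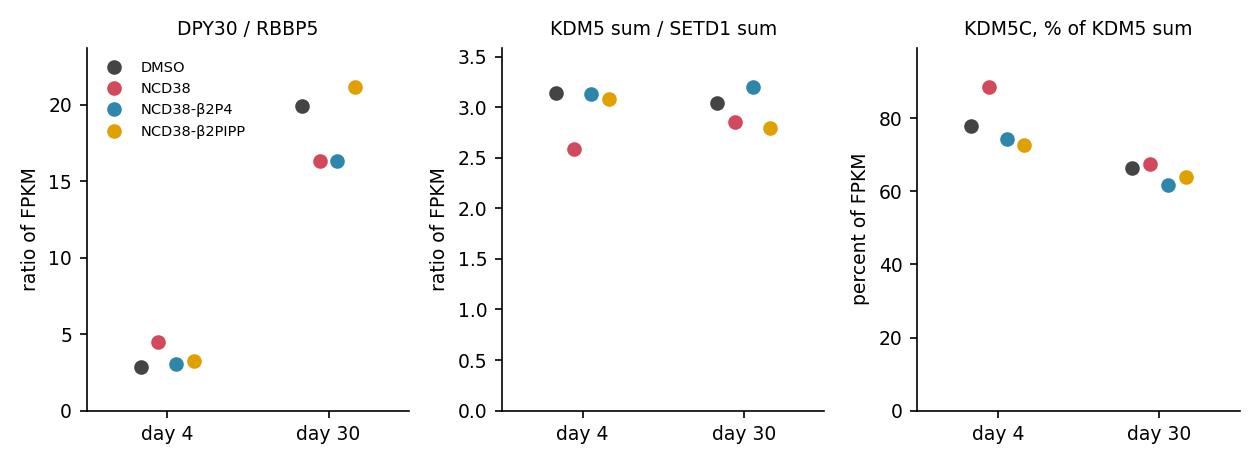
Ratios within each library, 1 point a library, coloured by treatment: DPY30 over RBBP5, the summed KDM5 over the summed SETD1 level, and KDM5C as a percent of the KDM5 sum, each on an axis from 0. DPY30 over RBBP5 lies at 2.82 to 4.46 on day 4 and 16.3 to 21.2 on day 30, while the KDM5 to SETD1 ratio lies between 2.59 and 3.20 in all 8 libraries. All are of FPKM as deposited, with no GC trend subtracted.

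The first comparison asked how the day 30 libraries differed from those of day 4, with treatment in the model. DPY30 was higher on day 30 and KDM5C, WDR5, CXXC1, SETD1A and SETD1B were lower, so 6 of 10 passed (limma, adjusted p under 0.05), whereas 61.9% of all expressed genes passed (30.2% higher and 31.7% lower). The count is near that background. Likewise 6 of 10 had libraries of the 2 days that did not overlap, against 62.6% of expressed genes. The median difference was -0.52 over the 10 genes and -0.02 over expressed genes.

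DPY30 was higher on day 30 by 1.94 on the log2(FPKM + 1) scale (SE 0.20, 95% interval 1.43 to 2.45, limma adjusted p = 0.000998), or 3.83-fold. Its transcript is short (0.688 kb) and poor in GC (42.0%). KDM5C was lower by 1.06 (log2 difference -1.06, SE 0.17, limma adjusted p = 0.00365). WDR5 was lower too (-0.96, SE 0.12, limma adjusted p = 0.00167), as was CXXC1 (-0.93, SE 0.12, limma adjusted p = 0.0018). These 3 transcripts contain 55.6 to 60.4% GC. The SETD1A difference was -0.72 (SE 0.16, limma adjusted p = 0.0107) and the SETD1B difference -0.68 (SE 0.22, limma adjusted p = 0.0405). KDM5A (0.29, 95% interval -0.45 to 1.02), KDM5B (-0.29, -1.10 to 0.52), RBBP5 (-0.37, -1.09 to 0.35) and ASH2L (-0.21, -0.81 to 0.38) did not pass. Without either NCD38 library, KDM5B (-0.67, limma adjusted p at most 0.0193) and RBBP5 (-0.68, at most 0.0309) also passed and 7 of 10 were lower. Without either DMSO or either NCD38-β2P4 library 3 were lower, SETD1A and SETD1B no longer passing (limma adjusted p of SETD1A 0.0623 to 0.0745), and SETD1B did not pass without either NCD38-β2PIPP library (0.103 and 0.109). Of the 10865 expressed genes, 7108 or 7102 passed without an NCD38 library, against 6722 with all 8 libraries. Without a DMSO library 4586 or 4567 passed, without an NCD38-β2P4 library 4809 or 4796, and without an NCD38-β2PIPP library 6707 or 6729.

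Over expressed genes the day difference followed transcript GC content: its median was 1.35 in the fifth of genes with the lowest GC and -0.74 in the fifth with the highest, with a Spearman rho of -0.70 over 9835 genes of the same libraries. The 10 genes divide along this line, with SETD1A, SETD1B, CXXC1, KDM5C and WDR5 above 55% GC and the others below 48%. With the GC trend of each library subtracted, DPY30 remained higher on day 30 by 0.98 (limma adjusted p = 0.000197), at percentile 88.0 of genes of like GC content. WDR5 remained lower (-0.32, limma adjusted p = 0.0386), at percentile 32.8. SETD1A (0.08), SETD1B (0.02), CXXC1 (-0.15) and KDM5C (-0.35, percentile 28.5) then did not pass.

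RBBP5, KDM5B and KDM5A, at 42.7 to 44.1% GC, passed after this subtraction and not with all 8 libraries as deposited. RBBP5 then differed by -1.04 (limma adjusted p = 0.000312), at percentile 7.11 of 492 genes of like GC content, KDM5B by -0.70 (limma adjusted p = 0.00414) and KDM5A by -0.38 (limma adjusted p = 0.0224), the last with the opposite sign to its unsubtracted value. KDM5B lay at percentile 15.7 of genes of like GC content and KDM5A at percentile 29.7. The KDM5C share of the KDM5 sum was not recomputed on this scale, where KDM5C (-0.35) differed no more between days than KDM5A or KDM5B. In that setting 5 of 10 passed against 58.9% of the 9835 genes with a GC value. DPY30 and WDR5 were thus the 2 of the 10 that passed in the same direction in both settings. Day, date of collection and sequencing run cannot be told apart: the labels name 2 sequencers without assigning libraries to them, and the 4 libraries of a day are different treatments, not replicates, so p-values measure the spread left after day and treatment.

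**Figure D3:**
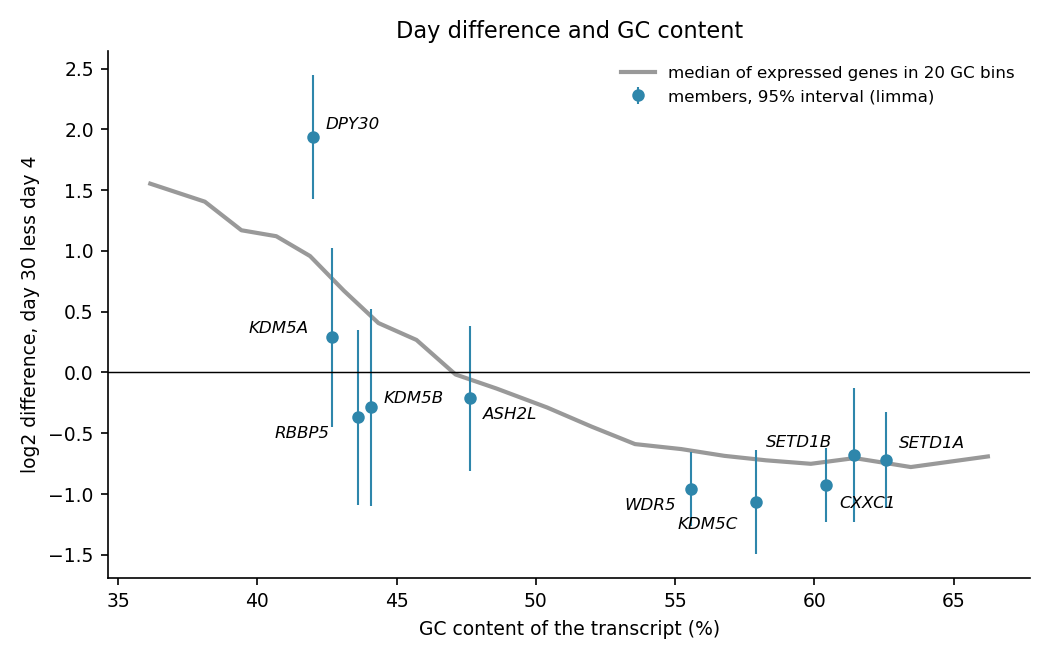
Log2 difference between day 30 and day 4 (limma, bars 95% intervals) against GC content of the transcript for the 10 genes, with the median of expressed genes in 20 GC bins as a line. The line falls from 1.55 at 36.2% GC to below -0.6 above 55% GC, and DPY30 lies above it at 1.94 and RBBP5 and KDM5B below it at -0.37 and -0.29.

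The second comparison asked whether LSD1 inhibition moved these genes. With all 3 inhibitors against DMSO and day in the model, 0 of 10 passed (limma) and 0 of 10 had an unadjusted p under 0.05, while 0.0276% of expressed genes, 3 in number, passed. Differences of this mean over 3 compounds ran from -0.08 to 0.11. The 95% intervals were widest for KDM5B (-1.01 to 0.85) and KDM5A (-0.73 to 0.96). They were narrowest for WDR5 (-0.36 to 0.35) and CXXC1 (-0.26 to 0.44). Each interval gives the range of differences compatible with these libraries for that gene alone. Taken one by one against DMSO, the 3 compounds also gave 0 of 10 each, with 0 of 10 at an unadjusted p under 0.05 (0.0368% of expressed genes passed for NCD38, 0.0184% for NCD38-β2P4 and 0.0184% for NCD38-β2PIPP). Their differences spread more widely, from -0.65 to 0.31 for NCD38, -0.06 to 0.31 for NCD38-β2P4 and -0.09 to 0.37 for NCD38-β2PIPP.

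Between compounds, 3 pairs were compared, and 0 of 10 passed in each, with backgrounds of 0.0092% for NCD38-β2P4 less NCD38, 0.0184% for NCD38-β2PIPP less NCD38 and 0.0276% for NCD38-β2P4 less NCD38-β2PIPP. ASH2L was the one gene with an unadjusted p under 0.05, in the first of these pairs (log2 difference 0.92, 95% interval 0.08 to 1.76, limma adjusted p = 0.71) and the second (0.86, 0.02 to 1.70, limma adjusted p = 0.53). Of expressed genes, 3.24% in the first pair and 6.37% in the second had an unadjusted p under 0.05. Between the 2 conjugates ASH2L differed by 0.06 (95% interval -0.78 to 0.90), and the differences of the 10 genes ran from -0.18 to 0.13. The last comparison, of the inhibitor effect between days, treated the 3 inhibitors of a day as replicates against 1 DMSO library. Its intervals were therefore wide where the compounds differed, as for KDM5B (-1.84 to 2.26). The inhibitor effect on day 30 less that on day 4 also passed for 0 of 10 (limma, 0 of 10 at an unadjusted p under 0.05), against 0.23% of expressed genes.

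Each treated library was then set against the DMSO library of its day. These log2 ratios of FPKM + 1 have no replicate and no test, and the 3 of a day share 1 DMSO library. The ± value is a 95% half-width for counting error alone, from the estimated fragment numbers. On day 30 the levels stayed close to DMSO. With NCD38, 0 of 10 lay past 1.5-fold, against 6.8% of expressed genes. SETD1B had the highest ratio (0.35) and ASH2L the lowest (-0.45 ± 0.20), at percentiles 86.4 and 5.08 of expressed genes. With NCD38-β2PIPP, 0 of 10 lay past 1.5-fold, against 2.63%, and KDM5C gave the lowest ratio (-0.31 ± 0.09).

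With NCD38-β2P4 on day 30, 1 of 10 lay past 1.5-fold, against 2.3% of expressed genes (1.43% higher). This was ASH2L, higher by 0.62 ± 0.19 on the log2 scale (1.54-fold), at percentile 98.8 of expressed genes, and by 0.51 with the GC trend subtracted. The other 9 lay between -0.12 and 0.29.

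On day 4, 9 of the 10 genes lay below DMSO with NCD38, where the median ratio of expressed genes was -0.21. Of the 10 genes, 5 lay past 1.5-fold below DMSO, against 24.6% of expressed genes past 1.5-fold and 22.5% past it downwards. KDM5B had the lowest ratio of FPKM + 1 (-1.16 ± 0.13, or 2.23-fold lower, percentile 2.11). On that scale it was the one gene of the 10 past 2-fold, against 4.54% of expressed genes past it downwards. RBBP5 followed (-0.996 ± 0.21), then ASH2L (-0.86 ± 0.21), KDM5A (-0.79 ± 0.15) and DPY30 (-0.60 ± 0.38). Both the order and the 2-fold call depend on the pseudocount. Without it the log2 ratios were -1.41 for KDM5B, -1.32 for RBBP5, -1.29 for KDM5A, -0.998 for ASH2L and -0.66 for DPY30. RBBP5 and KDM5A were then past 2-fold as well, and the share of expressed genes on that scale is not given here. CXXC1 was the one gene above DMSO (0.46 ± 0.11, 1.37-fold, percentile 94.9).

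The 5 lower genes are those below 48% GC, and in this library the ratio of expressed genes was correlated with GC content (Spearman rho 0.61 over genes of 1 pair of libraries). The trend was not a steady rise. In 20 GC bins the median ratio was -0.24 at 36.2% GC, lowest at 45.7% (-0.61) and highest at 66.2% (0.34). With the GC trend subtracted, 1 of 10 lay past 1.5-fold lower: SETD1B (-0.59), which had stood at -0.40. KDM5B was at -0.52 on that scale, RBBP5 at -0.38, ASH2L at -0.28, KDM5A at -0.18, DPY30 at -0.07 and CXXC1 at 0.31.

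With the conjugates on day 4 most of the 10 genes lay above DMSO, 8 with NCD38-β2PIPP and 7 with NCD38-β2P4. The median ratio of expressed genes was also above 0 in both libraries. It was 0.17 with NCD38-β2PIPP, against 0.36 for the 10 genes, and 0.09 with NCD38-β2P4, against 0.11. With NCD38-β2PIPP, 2 of 10 lay past 1.5-fold, both higher, KDM5A (0.76 ± 0.125) and DPY30 (0.66 ± 0.30), against 29% of expressed genes past 1.5-fold and 27.1% past it upwards. ASH2L (0.48), RBBP5 (0.42), SETD1B (0.40) and KDM5B (0.33) were also above DMSO beyond counting error. The ratio of expressed genes fell with GC content here (rho -0.71), and with the trend subtracted KDM5A stood at 0.10, DPY30 at -0.09 and SETD1B at 0.50. With NCD38-β2P4, 0 of 10 lay past 1.5-fold, against 9.54%, and KDM5A was highest (0.40 ± 0.13).

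**Figure D4:**
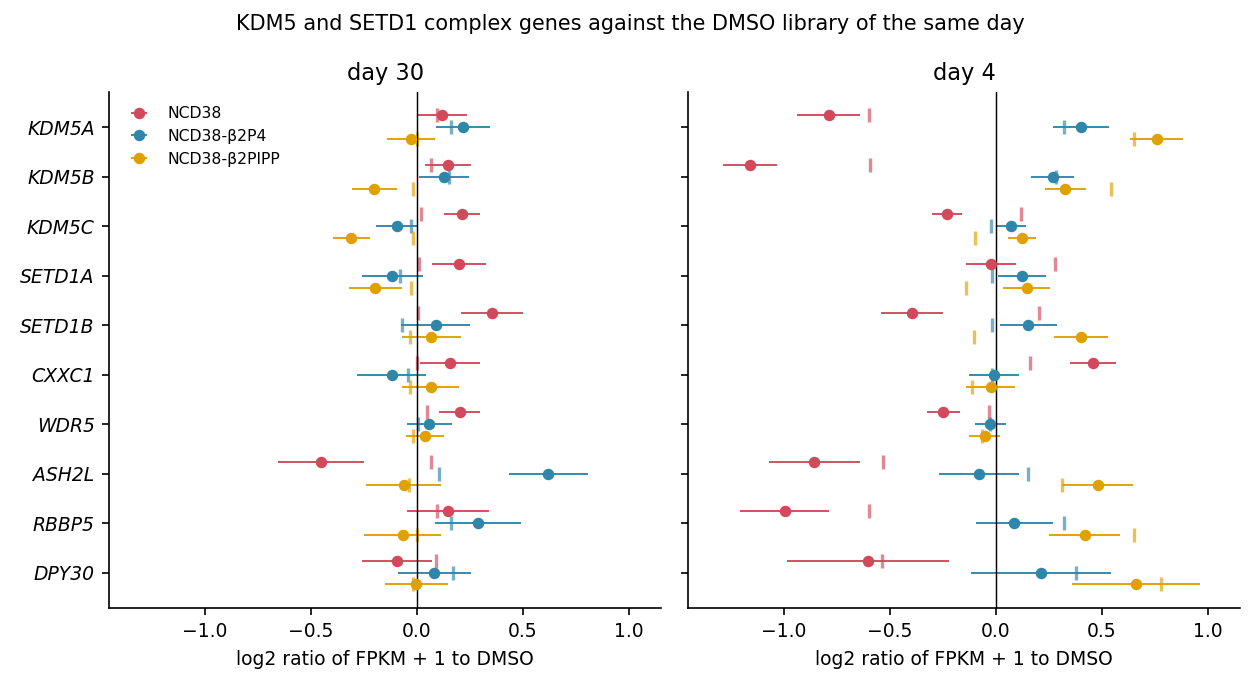
Log2 ratio of FPKM + 1 in each inhibitor library to the DMSO library of the same day, for day 30 and day 4. Circles are the ratios, bars the 95% counting half-width, and short vertical ticks the median of expressed genes of like GC content. On day 4 the NCD38 points of KDM5A, KDM5B, ASH2L, RBBP5 and DPY30 and their ticks lie left of 0, and the NCD38-β2PIPP points of KDM5A and DPY30 and their ticks lie right of 0, and ASH2L with NCD38-β2P4 on day 30 (0.62) lies far from its tick.

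Across the 8 libraries the 10 genes fell into patterns that are given as descriptions, since all points share the same libraries and their 2 days. KDM5C followed SETD1A (Pearson r of log2(FPKM + 1) 0.99) and WDR5 (0.98), KDM5B followed RBBP5 (0.97), and DPY30 ran opposite to CXXC1 (-0.98). DPY30 and KDM5A had the widest ranges of the 10, 2.70 and 1.55 on the log2 scale, against a median of 1.46 over expressed genes. The expressed genes most like DPY30 were CEBPG, CD47 and TCEAL4 (r of at least 0.9992), and 26.2% of expressed genes had an r over 0.9 with it. Those most like KDM5A were CKAP5, KPNB1 and METTL9 (r of at least 0.9958), with 8.29% of expressed genes over 0.9.

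Other genes of H3K4 methylation were counted beside these: 35 further writers, complex-specific subunits, erasers and readers, of which 33 were expressed. On day 30 against day 4, 6 were higher, 9 lower and 18 did not pass (limma), where 30.2% of expressed genes were higher and 31.7% lower. Of 10 expressed complex-specific subunits 2 were higher and 4 lower, of 13 readers 4 were higher and 3 lower, of 6 other writers 1 was lower, and of 4 other erasers 1 was lower. PSIP1, the chromatin tether of the menin-MLL complex, was higher on day 30, at 37.2 to 45.2 FPKM against 4.03 to 13.9 (log2 difference 2.26, SE 0.28, limma adjusted p = 0.00158). CHD1, a remodeller that reads trimethylated H3K4, was higher as well, at 4.97 to 6.18 FPKM against 0.21 to 1.03 (2.15, SE 0.20, limma adjusted p = 0.000808). HCFC1, a host cell factor found in SETD1 and MLL complexes, was lower, at 4.06 to 7.54 FPKM against 20.7 to 26.6 (-1.95, SE 0.21, limma adjusted p = 0.00101). With the GC trend subtracted the differences were smaller, at 1.06 for PSIP1, 0.71 for CHD1 and -1.24 for HCFC1. With any inhibitor 0 of the 33 passed.

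KDM1A, which encodes the drug target, stood at 42.0, 46.1, 45.6 and 39.4 FPKM on day 30 and at 56.6, 38.0, 69.9 and 72.1 FPKM on day 4. Its level was 1.09 to 1.82 times the summed KDM5 level in each library, lowest in NCD38 on day 4, and its day difference did not pass (-0.40, limma adjusted p = 0.13).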

How the data were processed

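RNA of RKO cells was sequenced from TruSeq stranded mRNA libraries, 1 for each of 8 conditions. The authors deposited 1 table of FPKM values per gene from Cufflinks, on hg19. The study's methods name TopHat as aligner, and the submitters' processing notes list HISAT2 2.2.1.0, BWA 0.5.9 and bedtools 2.20.1 without roles. The ChIP libraries of the study were not analysed here.

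The 90 entries with repeated symbols were left out. Expressed genes had a mean FPKM of at least 1. log2(FPKM + 1) was fitted with limma 3.58.1 (R 4.3.3, trended variance) on treatment and day over all 8 libraries (3 residual degrees of freedom), with Benjamini-Hochberg adjustment over 10865 genes, and the inhibitor effect by day had its own fit. The pseudocount of 1 understates changes of low genes. The steps were tested on simulated data. GC content and length came from GENCODE 44 transcripts on GRCh37, and the GC trend of each library was the median of 20 GC bins. Fragment numbers were estimated from the FPKM that 1 fragment gives, with 150 bases taken from transcript length, so counting errors are approximate and cover counting alone. Alternatives changed the pseudocount, filter, scaling, variance model, day term, GC trend, DMSO library or left out a library.

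All 10 genes and the gene lists were chosen with earlier results of these data known. Named in addition were KDM1A, the 4 list genes with the largest called difference in each comparison (EPCAM among them), and the 3 genes most correlated with the 2 widest-ranging members.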

Additional observations from a re-analysis of the deposited data

Results flagged for a closer look

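WDR5 was singled out because its ratio to DMSO was above 0 with all 3 inhibitors on day 30 (0.20, 0.06 and 0.04 on the log2 scale for NCD38, NCD38-β2P4 and NCD38-β2PIPP) and below 0 with all 3 on day 4 (-0.25, -0.03 and -0.05). The test of the difference did not pass: the inhibitor effect on day 30 exceeded that on day 4 by 0.21 (SE 0.26, 95% interval -0.43 to 0.84, limma adjusted p = 1.0). The 3 ratios of a day share 1 DMSO library, and those with NCD38 were the ones beyond counting error on either day.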

How the results depend on the processing

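Over 66 results, 906 alternative values were computed, of which 11 changed sign, and without a change of sign 15 tested values lost their call and 6 gained one. Of the rest, counts within 1.5 times and ratios within their counting error of the reported value, 749 in all with the tested values that kept their call, were taken as unmoved, and these include ratios that crossed 1.5-fold, such as ASH2L with NCD38-β2P4 on day 30 (0.51 with the GC trend subtracted). The remaining 125 moved, among them counts of expressed genes called in the inhibitor comparisons. With any inhibitor this count went from 3 to 0 with the GC trend subtracted and to 5 with median-ratio scaling. Against DMSO taken from the opposite day, genes past 1.5-fold higher and lower became 1 and 4 for NCD38 on day 30, 4 and 3 for NCD38 on day 4, 1 and 5 for NCD38-β2P4 on day 30, 7 and 1 for NCD38-β2P4 on day 4, 1 and 7 for NCD38-β2PIPP on day 30, and 8 and 1 for NCD38-β2PIPP on day 4, where DPY30 reversed to -1.35. These ratios also contain the day difference, for which 61.9% of expressed genes passed (limma). With the GC trend subtracted, 1 was lower with NCD38 on day 4, 0 were higher with NCD38-β2P4 on day 30 and 0 with NCD38-β2PIPP on day 4 (DPY30 reversed to -0.0921), and the day differences of KDM5A (-0.38), SETD1A (0.0757) and SETD1B (0.0246) reversed. Median-ratio scaling moved the median day difference of expressed genes from -0.02 to 0.24, upper-quartile scaling to 0.21, and the ASH2L day difference, which did not pass, reversed to 0.064 and 0.0283. Median-ratio scaling put 1 gene higher with NCD38 on day 4 and 1 with NCD38-β2PIPP on day 4, and upper-quartile scaling 0 with NCD38-β2P4 on day 30.

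Leaving out 1 library at a time gave 3 to 7 of the 10 lower on day 30 (3 without either DMSO or either NCD38-β2P4 library, 7 without either NCD38 library) and 7 to 18 other list genes called (7 without either DMSO library, 8 without NCD38-β2P4 on day 4). The expressed genes called moved with them, from 4567 without DMSO of day 4 to 7108 without NCD38 of day 30. With all 8 libraries they numbered 6722. KDM5A ran from -0.0195, without either NCD38 library, to 0.544, and ASH2L from -0.399 to 0.0147, without either NCD38-β2PIPP library. SETD1B also lost its call with either scaling or no filter. The inhibitor effect by day could not be fitted without a DMSO library. The day comparison was blocked by treatment and the inhibitor comparisons by day. Without the treatment block the day comparison again gave 1 of the 10 higher and 5 lower. No further pairing by replicate number could be made, as the labels carry none. With 1 library a condition, effects within a gene's own interval remain compatible with these libraries. Beyond the values given here, the cause was not tested.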
